A study of Mus musculus with 10 samples.

Results

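The comparison described here is that of ΔLARM1/2 mutant with wild type mouse digit tips 12 days post amputation (dpa). Its members were chosen by title, as the 3 mutant and 2 wild type libraries of that day among 10 libraries in all. Mutant mice lack LARM1 and LARM2, enhancers that drive the gene Lmx1b in the limb. Wild type controls shared the mixed CD1 C57Bl/6 background and the age of 33 days, and carried no other allele that the labels name. Each library pooled blastema tissue from 6 amputated central digits of the hindlimb, so that a value is an average over digits. The labels do not say how many animals gave those digits. The other 5 libraries, taken at 14 dpa and an age of 35 days, entered the fit and are used only to ask whether a genotype difference at 12 dpa also stood 2 days later. Of those, mutant replicate 1 is mutant by its title and description while its genotype tag reads wild type, and the wild type numbers differ between title and description, so titles were followed. Lmx1b measured 0.234 CPM in that library, against 0.0696 and 0.0278 CPM in the other mutant and 2.14 and 1.69 CPM in the wild type libraries of 14 dpa.

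After amputation through the last bone of a mouse digit, epidermis closes the wound and a blastema forms beneath it. The blastema is a mass of proliferating, largely fibroblast-like cells from which bone, dermis and nail bed are rebuilt, and the nail epithelium with its Wnt signals is known to be needed for this. Lmx1b encodes a LIM homeodomain transcription factor that specifies dorsal limb identity, and the nail is a dorsal structure. Digit blastema tissue is mixed, and in a bulk library fewer cells of a type and less RNA per cell of that type cannot be told apart.

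The 12 dpa libraries held between 74640170 and 81784761 expected counts and 24562 to 25190 genes with at least 1 count. A gene passed the test where edgeR's quasi-likelihood fit over all 10 libraries gave a Benjamini-Hochberg adjusted p under 0.05, and levels are CPM, counts scaled to a common library size, after scaling by trimmed means of M values (TMM). Of 20216 tested genes, 3339 (16.5%) passed at 12 dpa, of which 1451 (7.18%) rose and 1888 (9.34%) fell in the mutant. All 3339 had mutant libraries lying wholly outside the range of the wild type libraries, against 5197 (25.7%) higher and 5249 (26.0%) lower among all tested genes. Falls were larger than rises, with 1416 genes falling and 533 rising by more than 2-fold, and 573 falling and 219 rising by more than 4-fold. Genotype separated the libraries along the first principal component, which held 60.9% of the variance, and the second, with 16.3%, set mutant replicate 3 apart from the other mutant libraries. With only 2 wild type libraries the number of calls rests strongly on each of them: 769 genes passed without wild type replicate 2, 1509 without wild type replicate 1, and 2166, 2069 and 2304 without mutant replicates 1, 2 and 3. Without the 14 dpa mutant library whose genotype tag reads wild type, 3948 genes passed at 12 dpa. Scaling also matters, because the median of all tested genes was 0.03 on the log2 scale here but 0.16 on log2(TPM + 1) and 0.29 on log2(TPM + 0.1). Rises made up 43.5% of the calls in the count fit, 71.8% and 74.5% on those TPM scales, and 47.5% once the library medians of log2(TPM + 1) were set equal. For 15 of the 58 gene lists described here the median had the opposite sign on log2(TPM + 1), and for 10 with equal library medians, so lists are described mainly by their counts. Those counts shift with scale too: the Hox list gave 2 rises and 4 falls in the count fit, and 9 and 2 on log2(TPM + 1). No gene called in the count fit was called in the opposite direction under any of the settings run.

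Mutant replicate 3 stood apart in several gene groups. It held the highest mutant levels of several pigment cell, inflammatory, osteoclast and matrix protease genes. Several of the pigment cell and inflammatory results are given with and without it. The wild type libraries came from 1 female and 1 male pool by their sex-linked genes and the mutant libraries from 1 female and 2 male pools. Each genotype thus held both sexes, in unequal shares, and leaving out either wild type library left wild type tissue of a single sex. With sex as a covariate 2635 genes passed, and 2563 of the 3339 calls were kept.

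Lmx1b (ENSMUSG00000038765) was low in wild type tissue and lower still in the mutant. It measured 2.68 and 2.94 CPM in the wild type libraries and 0.0788, 0.336 and 0.168 CPM in the mutant libraries, with no overlap between the groups. Means were 2.81 ± 0.18 (SD, n = 2) and 0.194 ± 0.13 (SD, n = 3), a log2 fold change of -3.86 (SE 0.67, adjusted p = 0.00693). Without mutant replicate 2, the highest of the mutant libraries, the log2 fold change was -4.48. Among the 6 nearest protein-coding genes on each side of Lmx1b in the RefSeq order, all 12 were tested and only Hspa5 passed. Angptl2, a secreted angiopoietin-like protein, measured 275 and 245 against 136, 162 and 198 CPM, a log2 fold change of -0.66 that did not pass (adjusted p = 0.0958). It did pass without 14 dpa mutant replicate 1, the library whose genotype tag reads wild type. The immediate neighbours Zbtb43 and Mvb12b did not pass either, with Zbtb43 at 35.6 and 34.0 against 35.2, 42.8 and 36.8 CPM and Mvb12b at 13.3 and 16.7 against 13.5, 15.1 and 19.2 CPM.

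The 12 largest rises and 12 largest falls are given here for protein-coding genes with a mean of at least 10 CPM in either genotype. Only genes that passed and whose libraries did not overlap between the genotypes were eligible. Keratins, predicted genes and the nail, vessel, pericyte, neutrophil and alarmin lists were left out. Zbtb16, a zinc finger transcription factor known from limb and skeletal patterning, measured 3.98 and 2.50 CPM in wild type and 51.5, 94.7 and 74.0 CPM in the mutant. Its log2 fold change was 4.50 (SE 0.53, adjusted p = 0.00196). Atp12a, a proton and potassium pump of epithelia, rose from 0.490 and 0.966 to 14.2, 22.1 and 12.3 CPM, or by 4.47 on the log2 scale (SE 0.44). The remaining large rises were the cornified envelope precursors Sprr2a3 (5.26), Sprr2e (5.25) and Sprr2i (5.12), the chitinase-like Chil1 (5.81), the epidermal lipoxygenase Alox12e (4.89), the aldehyde oxidase Aox4 (3.53), the serine proteases Tmprss11g (5.18), Tmprss11b (3.36) and Klk6 (3.36), and Oas1f (3.08). Mutant replicate 3 held the lowest Chil1 level, 74.0 CPM against 299.6 and 250.3, while both wild type libraries were at or below 6.78 CPM.

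Cybrd1, a ferric reductase, measured 324 and 746 CPM in wild type and 3.04, 2.79 and 2.33 CPM in the mutant, a log2 fold change of -7.62 (SE 0.46, adjusted p = 0.00012). Lrrc15, a leucine-rich repeat membrane protein, measured 5956 and 12493 CPM in wild type and 133, 168 and 79.2 CPM in the mutant, a log2 fold change of -6.18 (SE 0.44). Wild type replicate 2 held the higher level of both genes, and the mutant libraries lay far below either. Chac1, an enzyme that degrades glutathione, measured 219 and 424 against 5.70, 6.87 and 6.90 CPM, a log2 fold change of -5.63 (SE 0.39). Col10a1, the collagen of hypertrophic cartilage, measured 31.9 and 22.2 CPM in wild type and 0.045, 0.0129 and 0 CPM in the mutant. Tmprss11c (-5.38), Klk15 (-5.23), Golga7b (-6.80), Cpn2 (-4.86), Tmem56 (-4.82), Fabp4 (-4.32), Efhd1 (-4.26) and Lef1 (-4.23) completed the 12 largest falls among those genes. Tmprss11c thus fell while the related Tmprss11g and Tmprss11b rose, and Klk15 fell while Klk6 rose.

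Calls changed with the libraries included. Of these 24 genes, 9 lost the call without wild type replicate 1 and 8 without wild type replicate 2, and every gene lost in either fit was one that had risen. Zbtb16, Atp12a and Klk6 passed in each of those fits. Chil1 also lost the call in each of the 3 fits that left out a mutant library, and Alox12e lost it without mutant replicate 3. Without wild type replicate 2 the log2 fold changes were -6.90 for Cybrd1, -5.55 for Lrrc15, -4.24 for Cpn2 and -3.31 for Lef1, and 8.40 for Chil1, 5.98 for Sprr2e, 5.91 for Sprr2i and 4.44 for Aox4. Oas1f moved to 2.50 without wild type replicate 1 and 4.10 without replicate 2, Tmprss11g to 4.43 without mutant replicate 3, and Sprr2a3 to 4.49 and Tmprss11b to 2.69 without mutant replicate 1.

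**Figure D1:**
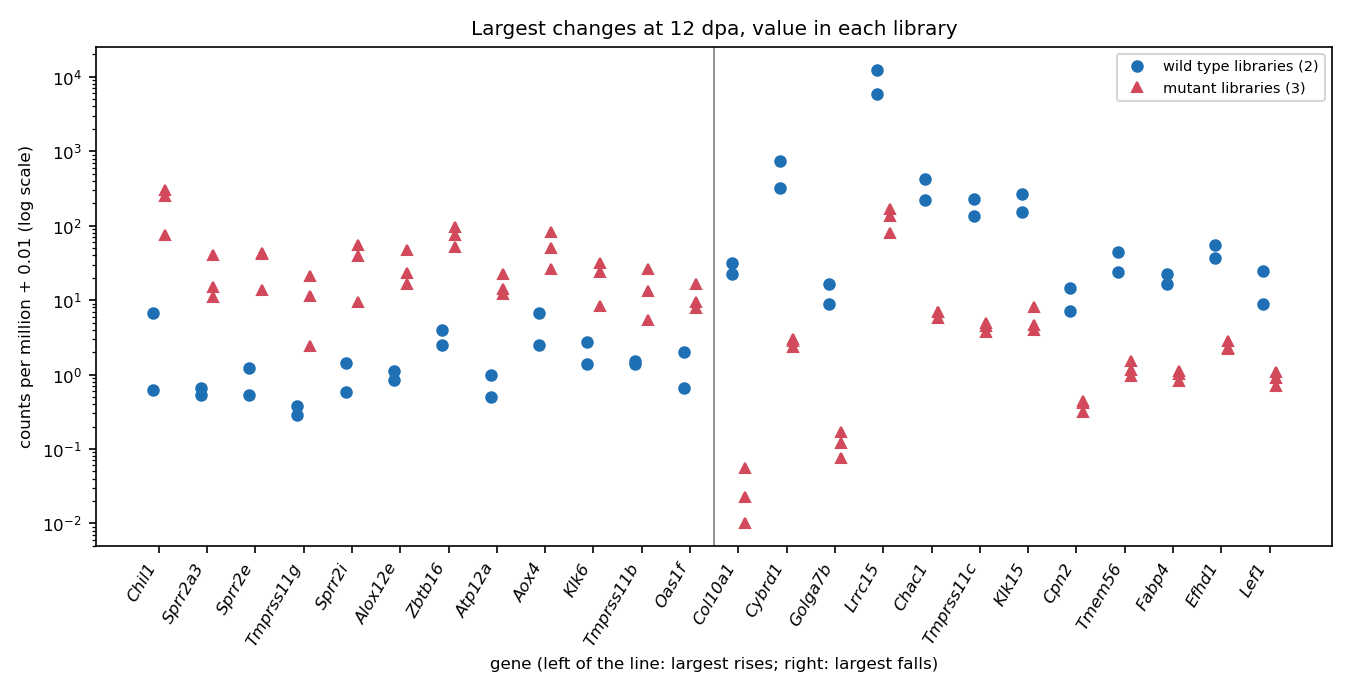
Level of the 24 genes in each 12 dpa library, as CPM plus 0.01 on a log axis, with circles for the 2 wild type and triangles for the 3 mutant libraries. Genes left of the line rose and genes right of it fell. That circles and triangles do not overlap was a condition for choosing these genes.

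Among transcription factors of limb identity, 4 of 32 tested dorsoventral and limb members rose (12.5%, against 7.18% of all genes) and 10 fell (31.2%, against 9.34%), with a median log2 fold change of -0.52, against 0.03 over all tested genes. The median of this list stayed below 0 on every TPM scale run. Alx4, an aristaless-type factor of anterior limb mesenchyme, measured 27.2 and 33.2 CPM in wild type and 4.50, 5.68 and 2.99 CPM in the mutant (log2 fold change -2.78, SE 0.35, adjusted p = 0.00226). Tbx18, a T-box factor, measured 52.1 and 50.9 against 11.3, 10.2 and 13.6 CPM (-2.14, SE 0.24). Shox2, a regulator of limb bone growth, was below 1 CPM in every library and fell by 3.18 on the log2 scale. En1, the homeodomain factor of ventral limb ectoderm, fell from 213 and 131 to 80.4, 96.6 and 44.8 CPM (-1.22, adjusted p = 0.0278). Hand2 (-2.47) and the hindlimb factor Tbx4 (-1.43) also fell, while the hindlimb factor Pitx1 did not pass (0.72, adjusted p = 0.178). Wnt7a, the dorsal ectodermal signal, was at or below 0.302 CPM in all 5 libraries and did not pass (adjusted p = 0.505).

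The Iroquois factors moved the other way. Irx1 measured 0.0545 and 0.136 CPM in wild type and 1.51, 1.74 and 0.638 CPM in the mutant, a log2 fold change of 3.74 (SE 0.67, adjusted p = 0.00741). Irx2 rose from 0.776 and 1.497 to 6.51, 9.68 and 9.55 CPM (2.91, SE 0.47). The TALE homeodomain factor Meis1 (0.73), which acts as a partner of Hox proteins, rose less. Of 34 tested Hox genes 2 rose and 4 fell, shares of 5.88% and 11.8% that lie near those of all genes. Hoxa13, Hoxd13, Hoxd11 and Hoxa10 fell by 1.71, 1.25, 1.05 and 0.93 on the log2 scale, and Hoxa7 (1.17) and Hoxc10 (1.25) rose. Hoxa11 did not pass, at 2.79 and 2.39 against 0.991, 0.762 and 1.31 CPM (adjusted p = 0.0775). These calls were not firm: of the 15 changed genes named in this and the preceding description of limb factors, 8 and 7 lost the call without wild type replicates 1 and 2, and 6, 4 and 6 without mutant replicates 1, 2 and 3. Tbx4 and Hoxa13 lost it in all 5 of those fits, whereas Alx4, Tbx18, Irx2, Shox2 and Hoxa7 kept it in each. Without mutant replicate 1 Shox2 stood at -3.87, and without wild type replicate 2 Irx1 stood at 4.53.

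Cells meet unfolded protein in the endoplasmic reticulum by inducing chaperones through the unfolded protein response, and shortage of amino acids or other stresses acts through ATF4 in the integrated stress response. The promoters shown here are those of 4 genes of these responses that fell and hold a motif, because classic chaperone targets carry the endoplasmic reticulum stress element, in which CCAAT is followed after a spacer by CCACG, and many ATF4 targets carry TGATGNAA. The 250 bases before the RefSeq start on GRCm38.p6 are given for Hspa5 (chr2:34771840-34772089, plus strand), Hsp90b1 (chr10:86705445-86705694, minus strand), Chac1 (chr2:119350992-119351241, plus strand) and Pycr1 (chr11:120643749-120643998, minus strand). Capitals mark the conserved ends of each stress element in the chaperone genes and each TGATGNAA match in the others, on either strand.
Hspa5: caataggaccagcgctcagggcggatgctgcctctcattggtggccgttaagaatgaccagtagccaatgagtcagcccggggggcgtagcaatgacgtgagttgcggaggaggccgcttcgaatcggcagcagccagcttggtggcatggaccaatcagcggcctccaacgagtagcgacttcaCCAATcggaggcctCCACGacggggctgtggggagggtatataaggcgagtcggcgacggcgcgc
Hsp90b1: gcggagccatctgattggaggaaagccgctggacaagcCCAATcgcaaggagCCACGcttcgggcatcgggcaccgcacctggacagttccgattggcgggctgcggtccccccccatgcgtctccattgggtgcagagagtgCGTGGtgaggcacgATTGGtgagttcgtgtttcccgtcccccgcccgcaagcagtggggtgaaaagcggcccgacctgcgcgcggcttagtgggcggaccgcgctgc
Chac1: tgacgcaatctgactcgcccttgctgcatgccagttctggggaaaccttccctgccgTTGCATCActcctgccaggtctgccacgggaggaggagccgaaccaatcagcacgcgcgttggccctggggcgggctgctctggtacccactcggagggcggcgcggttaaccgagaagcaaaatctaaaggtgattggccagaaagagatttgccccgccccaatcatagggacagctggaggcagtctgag
Pycr1: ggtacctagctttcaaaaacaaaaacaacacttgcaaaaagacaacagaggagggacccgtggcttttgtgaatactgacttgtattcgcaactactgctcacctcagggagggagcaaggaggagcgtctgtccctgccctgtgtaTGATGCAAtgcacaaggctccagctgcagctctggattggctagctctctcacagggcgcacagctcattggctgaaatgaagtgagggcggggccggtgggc
The match in Hspa5 begins 65 bases before the start, that in Chac1 193 bases and that in Pycr1 103 bases before it.

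The endoplasmic reticulum chaperone Hspa5 (ENSMUSG00000026864), also called BiP, fell in the mutant with little spread. It measured 576 and 588 CPM in wild type and 241, 235 and 260 CPM in the mutant. Means were 582 ± 8.02 (SD, n = 2) and 245 ± 12.95 (SD, n = 3), a log2 fold change of -1.25 (SE 0.13, adjusted p = 0.000722), and the gene passed in each fit that left out a library of this day. Hsp90b1, the HSP90 chaperone of the same compartment, measured 230 and 285 against 169, 151 and 181 CPM (-0.63, adjusted p = 0.0301), and the co-chaperone Dnajb9 31.1 and 28.8 against 23.7, 21.7 and 20.6 CPM (-0.45, adjusted p = 0.0474). Those were the only 3 of 23 tested members of the chaperone and unfolded protein response list to fall (13.04%, against 9.34% of all genes) and none rose, while 13 of the 23 had mutant libraries wholly below wild type (56.5%, against 26.0%). Xbp1, the transcription factor of the response, did not pass (-0.09, adjusted p = 0.681). The list's median log2 fold change was -0.25 in the count fit and -0.17 with equal TPM medians, but 0.02 on log2(TPM + 1) as deposited. Hsp90b1 and Dnajb9 lost the call without either wild type library and without mutant replicate 1 or 2, and Dnajb9 also without mutant replicate 3. A stress element was found in the 300-base windows of 2 of the 3 chaperone genes that fell and in 7 of 17 with a window that did not pass, against 35 of 27025 windows (0.13%) over all genes.

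Of 23 tested members of the integrated stress response list 3 rose (13.04%) and 2 fell (8.70%), against 7.18% and 9.34% of all genes. Beside Chac1, Pycr1, a proline synthesis enzyme, fell from 5.05 and 6.33 to 2.63, 1.77 and 1.98 CPM (-1.42, SE 0.30, adjusted p = 0.0139). The serine synthesis enzymes Phgdh and Psat1 rose: Phgdh measured 43.7 and 52.8 against 122, 109 and 116 CPM (1.26, SE 0.23), and Psat1 66.8 and 69.2 against 140, 105 and 127 CPM (0.87, SE 0.20). Trib3, a pseudokinase induced in this response, rose from 8.53 and 7.01 to 20.7, 14.5 and 15.7 CPM (1.13, SE 0.24). Atf4 itself (-0.35, adjusted p = 0.103), Ddit3 (0.10, adjusted p = 0.845) and Asns (0.32, adjusted p = 0.0844) did not pass. The list's median was -0.27 and turned to 0.05 on log2(TPM + 1). TGATGNAA was found in the windows of both members that fell, in 1 of the 3 that rose and in 3 of 17 with a window that did not pass, against 1096 of 27025 windows (4.06%) overall. Without wild type replicate 1 the calls of Phgdh and Psat1 were lost, and without wild type replicate 2 those of Pycr1, Trib3 and Psat1. Chac1 passed in every fit that left out a library. A count of the homeodomain core (TAATTA), the AP-1 site (TGANTCA) and the pigment gene box (TCATGTG) over all genes that rose or fell was void, because a window was matched for only 1020 of 1451 and 1097 of 1888 of them.

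Few cytosolic heat shock genes passed, and those that did fell. Of 19 tested heat shock chaperones 3 fell (15.8%, against 9.34% of all genes) and none rose. Among the 19 chaperones, 7 lay wholly below wild type (36.8%, against 26.0% of all genes) and 2 wholly above (10.5%, against 25.7%). Those called were the small chaperone Cryab (3.36 and 4.04 against 1.22, 1.56 and 1.69 CPM, log2 fold change -1.31), Hsph1 (-0.69) and Dnaja1 (-0.55). Hspa1a, the stress-induced HSP70, did not pass, at 114 and 134 against 90.7, 132 and 168 CPM (0.07, adjusted p = 0.879). Hspb1 (-0.33, adjusted p = 0.132) and Hsp90aa1 (-0.34, adjusted p = 0.242) did not pass either. Immediate early genes encode the transcription factors induced within minutes of a stimulus. They gave 1 rise and 1 fall among 25 tested (4.0% each, against 7.18% and 9.34% of all genes). Jun fell from 176 and 152 to 102, 106 and 99.5 CPM (-0.68, adjusted p = 0.0224) and Ier2 rose from 50.3 and 41.1 to 68.8, 66.5 and 66.2 CPM (0.56, adjusted p = 0.0136). Fos measured 11.7 and 7.43 against 18.4, 15.7 and 59.9 CPM, with mutant replicate 3 well above the rest, and did not pass (adjusted p = 0.0871). Egr1 (0.44, adjusted p = 0.301) and Atf3 (-1.22, adjusted p = 0.176) did not pass. The medians of these lists, each -0.03, lay at 0.29 for heat shock and 0.44 for immediate early genes on log2(TPM + 1), so neither list has a direction that holds across scales.

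Oxidative stress genes, most of them targets of NRF2, gave 4 rises and 1 fall among 28 tested. Those shares were 14.3% and 3.57%, against 7.18% and 9.34% of all genes. Fth1, the ferritin heavy chain that stores iron, rose from 143 and 127 to 196, 288 and 326 CPM (1.002, SE 0.22, adjusted p = 0.0174). Superoxide dismutases Sod1 (0.64) and Sod2 (0.69) and the glutathione transferase Gstm1 (1.001) also rose. Srxn1, which reduces oxidised peroxiredoxins, fell from 86.8 and 109 to 47.1, 55.7 and 44.9 CPM (-0.99, SE 0.13, adjusted p = 0.00188). The standard NRF2 target Nqo1 (-0.16, adjusted p = 0.465), Hmox1 (-0.40, adjusted p = 0.329) and the metallothionein Mt2 (1.47, adjusted p = 0.112) did not pass. Mt2 lay at 52.98 and 107 CPM in wild type and 204, 184 and 280 CPM in the mutant. Targets of p53 split 3 to 4 among 20 tested. Gadd45g, a growth arrest gene, fell from 5.87 and 14.6 to 2.61, 2.31 and 2.51 CPM (-2.05, SE 0.32), and Gadd45a (-0.84), Plk2 (-0.71) and Aen (-0.59) fell too. The apoptosis gene Bbc3 (1.12), Zmat3 (0.59) and Ei24 (0.45) rose, whereas the core targets Cdkn1a (-0.18, adjusted p = 0.41) and Mdm2 (-0.11, adjusted p = 0.504) did not pass.

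Hypoxia and glycolysis gave 5 falls and 1 rise among 30 tested (16.7% and 3.33%, against 9.34% and 7.18% of all genes). Hif1a, the oxygen-regulated transcription factor, measured 453 and 629 CPM in wild type and 267, 210 and 278 CPM in the mutant (-1.10, SE 0.19, adjusted p = 0.00579). Adm, a vasodilator peptide, measured 17.2 and 19.5 against 6.54, 5.22 and 4.49 CPM (-1.76, SE 0.20), and Vegfa, the main growth factor of vessels, 38.3 and 58.2 against 20.7, 17.6 and 27.0 CPM (-1.15, SE 0.23). Pfkp (-0.66) and P4ha1 (-0.55) fell as well, and Egln1, an oxygen-sensing hydroxylase, rose (0.58). Ldha (-0.11, adjusted p = 0.634) and Car9 (0.52, adjusted p = 0.589) did not pass. Of the 23 changed genes named here for heat shock, immediate early, oxidative, p53 and hypoxia responses, 12 lost the call without wild type replicate 1 and 19 without wild type replicate 2, against 4, 6 and 5 without mutant replicates 1, 2 and 3. Without wild type replicate 2, Gadd45g stood at -1.24, and no oxidative stress gene was called as a rise without either wild type library. On log2(TPM + 1), where the median of all genes sits higher, the medians of the p53 and hypoxia lists were 0.14 and 0.19 in place of -0.13 each.

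**Figure D2:**
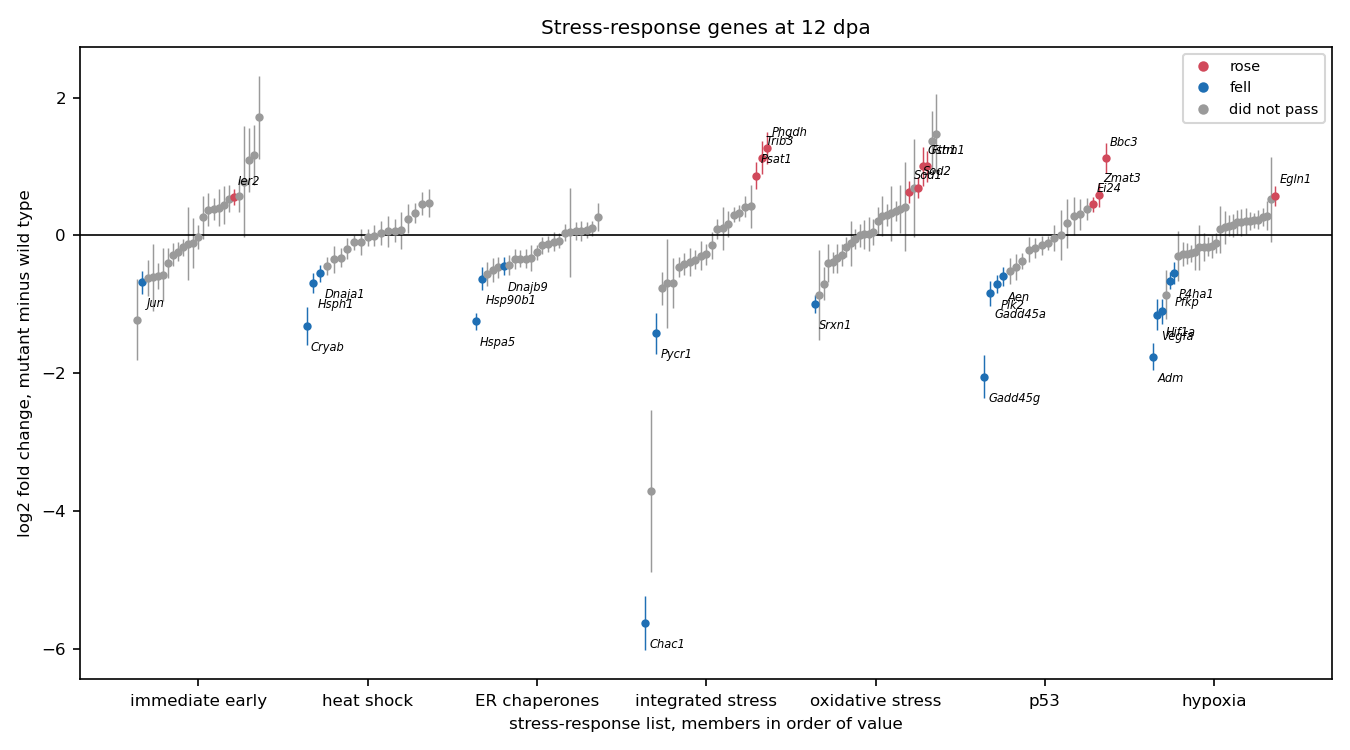
Log2 fold change of each tested member of 7 stress-response lists at 12 dpa, mutant minus wild type, with bars of 1 SE. Coloured points passed the test. Most members lie within 1 log2 unit of 0, and Chac1 lies lowest at -5.63.

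Ribosomal proteins make up the machinery of protein synthesis. Of 79 tested cytosolic ribosomal proteins 24 rose (30.4%, against 7.18% of all genes) and none fell, and 64 had mutant libraries wholly above wild type (81.0%, against 25.7% of all genes). Their median log2 fold change was 0.50, and 0.64 with equal TPM medians. Their summed level was 27956 and 20968 CPM in wild type and 39535, 32923 and 32595 CPM in the mutant. Rpsa, a component of the small subunit, measured 887 and 661 against 1507, 1241 and 1315 CPM (0.81, adjusted p = 0.014), and Rpl12 395 and 285 against 671, 527 and 566 CPM (0.79, adjusted p = 0.0193). Rps6 rose by less (0.58) and Rpl3 did not pass (0.50, adjusted p = 0.462). The wild type libraries themselves differed, replicate 2 being lower, and without it none of the 79 passed, while with other 12 dpa libraries left out up to 23 did. Reads of ribosomal protein genes can be shared with pseudogenes, so values of single members are uncertain.

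Other growth and housekeeping lists changed in few members in the count fit, and counts in some of them moved with scale. Respiratory chain rises numbered 27 of 57 on log2(TPM + 1) and 10 with equal library medians. Cell cycle rises numbered 6 and 8 of 33 on those scales. Over all 20216 tested genes, rises numbered 3134 and 1735 there, against 1451 in the count fit. In the respiratory chain 4 of 57 tested genes rose, Ndufa6 (0.56), Sdha (0.49) and Ndufb10 (0.43) among them, a share of 7.02% near the 7.18% of all genes, and none fell, while 27 lay wholly above wild type (47.4%, against 25.7%). Cox4i1 (0.34, adjusted p = 0.182), Ndufs1 (-0.09, adjusted p = 0.562) and Atp5a1 (0.31, adjusted p = 0.0906) did not pass. In ribosome biogenesis only Pes1 (0.44) rose among 27, and Ncl (0.37, adjusted p = 0.137), Npm1 (0.38, adjusted p = 0.0665) and Fbl (0.15, adjusted p = 0.527) did not pass. No proteasome gene of 31 passed, Psma1 at 0.16 and Psmb5 at -0.41 among them. Of 33 cell cycle genes only the replication helicase subunit Mcm6 rose, from 24.5 and 35.7 to 53.3, 49.4 and 62.8 CPM (0.87, adjusted p = 0.0246). Mki67, a marker of cycling cells, measured 139 and 259 CPM in wild type and 297, 206 and 375 CPM in the mutant, and the groups overlapped (adjusted p = 0.315). Mcm2 (0.60, adjusted p = 0.148) and Ccnd1 (0.51, adjusted p = 0.0646) did not pass. In cholesterol synthesis 3 of 25 tested genes rose (12.0%, against 7.18% of all genes), Dhcr7 (0.81), Mvk (0.47) and Ebp (0.42). In that list 1 gene fell (4.0%, against 9.34%), and Sqle (0.16, adjusted p = 0.485) did not pass. Of 17 clock genes the output factor Hlf rose from 28.1 and 18.6 to 65.8, 40.2 and 74.2 CPM (1.36) and Npas2 rose (0.93), while Per1 differed more between the wild type libraries, 52.1 and 198 CPM, than between genotypes. Dbp (-0.50, adjusted p = 0.332) and Nr1d1 (0.21, adjusted p = 0.557) did not pass. Of the 13 changed genes named for protein synthesis and these lists, 7 and 12 lost the call without wild type replicates 1 and 2, and 7, 5 and 8 without mutant replicates 1, 2 and 3.

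**Figure D3:**
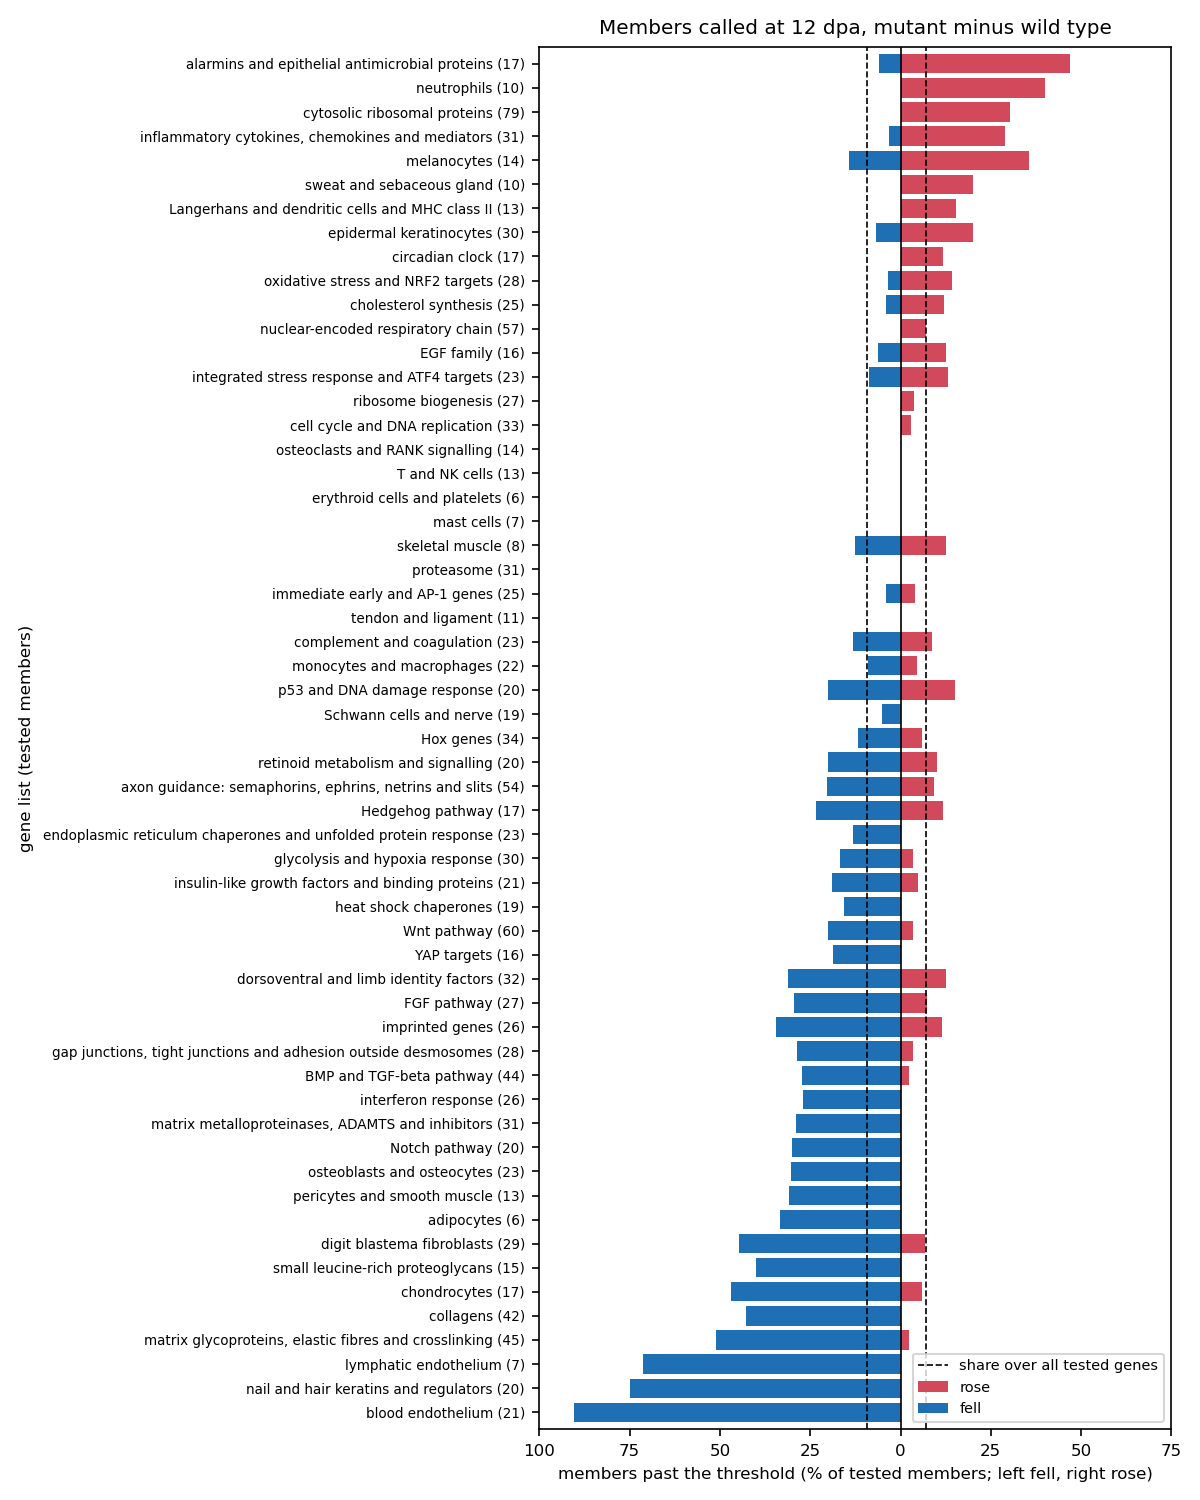
Share of tested members of each of 57 gene lists with at least 5 tested members that passed at 12 dpa, with falls to the left and rises to the right of 0 and the number of tested members in brackets. Dashed lines give the shares over all tested genes, 9.34% for falls and 7.18% for rises. Vessel, nail and matrix lists lie at the bottom, alarmin, neutrophil and ribosomal protein lists at the top.

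Of 29 tested blastema fibroblast genes 13 fell (44.8%, against 9.34% of all genes) and 2 rose, with a median log2 fold change of -1.16. The transcription factors Msx1, needed for digit tip regrowth, and Prrx1, a limb mesenchyme factor, both fell. Msx1 measured 40.6 and 38.8 CPM in wild type and 8.15, 8.01 and 8.12 CPM in the mutant (-2.29, SE 0.33, adjusted p = 0.0041), and Prrx1 114 and 105 against 43.1, 48.5 and 44.7 CPM (-1.27, adjusted p = 0.041). Mest, an imprinted gene of growing mesenchyme, fell from 53.3 and 53.5 to 5.49, 3.27 and 5.15 CPM (-3.52, SE 0.44). The growth factor receptor Pdgfra, a general fibroblast marker, did not pass, at 55.0 and 45.1 against 24.6, 28.9 and 39.8 CPM (-0.69, adjusted p = 0.205). Ly6a, a surface antigen, rose from 32.1 and 37.4 to 76.9, 65.1 and 81.9 CPM (1.10), and the retinoic acid binding protein Crabp2 rose (0.91). The list's summed level was 7822 and 14446 CPM in wild type, most of it Lrrc15, and 1207, 1092 and 1565 CPM in the mutant. Between 5 and 10 of its members fell when each library of this day was left out, the fewest without wild type replicate 2.

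The matrix lists cover collagens, proteoglycans, glycoproteins and proteases. None of 42 tested collagens rose and 18 fell (42.9%, against 9.34% of all genes), with 35 of the 42 wholly below wild type (83.3%, against 26.0%) and a median of -1.25. Col1a1, the main collagen of bone and dermis, measured 10401 and 12248 against 3011, 3481 and 4121 CPM, and missed the threshold at an adjusted p of 0.051 (-1.68). Col3a1 did not pass either (-0.98, adjusted p = 0.0875). Both Col1a1 and Col3a1 passed with the 12 dpa libraries fitted alone, and without 14 dpa mutant replicate 1 or 2. Col6a1 fell from 611 and 660 to 182, 256 and 263 CPM (-1.44, adjusted p = 0.0241). Among small leucine-rich proteoglycans, which organise collagen fibrils, 6 of 15 fell (40.0%), with Omd (-2.37), Ogn (-2.05) and Lum (-1.85) among them. Dcn showed no difference past the test (-0.01, adjusted p = 0.99) and Kera missed it (adjusted p = 0.0501). Of 45 glycoproteins and crosslinking enzymes 23 fell (51.1%) and 1 rose (2.22%, against 7.18% of all genes). Eln, the elastin gene, measured 197 and 207 against 48.5, 35.2 and 49.8 CPM (-2.18, SE 0.31), and Loxl3, a lysyl oxidase, 17.9 and 19.3 against 3.68, 3.82 and 3.66 CPM (-2.32, SE 0.26). Efemp1, a fibulin, was the member that rose, from 1.12 and 2.84 to 10.01, 9.52 and 12.1 CPM (2.41).

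Fn1, Tnc and Postn, genes of the provisional matrix of healing tissue, did not pass at 12 dpa. Fn1 measured 1014 and 1107 CPM in wild type and 412, 387 and 985 CPM in the mutant, Tnc 478 and 541 against 318, 233 and 444 CPM, and Postn 561 and 558 against 299, 262 and 547 CPM. In all 3 genes mutant replicate 3 lay near the wild type level and the other mutant libraries below it. The hyaluronan synthase Has2 did not pass (-0.62, adjusted p = 0.294). Of 31 matrix proteases and inhibitors 9 fell (29.0%, against 9.34% of all genes), Adamts9 (-2.08), Mmp23 (-1.92) and the membrane-bound Mmp14 (-1.10) among them. Mmp13, the collagenase of bone remodelling, measured 28.0 and 21.4 against 78.7, 36.4 and 287 CPM, and Mmp9, the gelatinase of osteoclasts and leukocytes, 144 and 222 against 179, 108 and 912 CPM. Neither passed (adjusted p = 0.0755 and 0.458), nor did Timp1 (-0.76, adjusted p = 0.545), and mutant replicate 3 again stood far above the rest. Of the 18 changed mesenchyme and matrix genes named in these accounts, 4 and 7 lost the call without wild type replicates 1 and 2, and Prrx1, Col6a1 and Lum lost it in each of the 5 fits that left out a library. Efemp1 stood at 3.24 without wild type replicate 2, and Mmp13 passed without mutant replicate 2. Without wild type replicate 2 the falls numbered 7 of 42 collagens and 6 of 45 glycoproteins.

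Of 17 tested chondrocyte genes 8 fell (47.1%, against 9.34% of all genes) and 1 rose, with a median of -2.34. The cartilage collagens Col2a1 (2.25 and 1.16 against 0.18, 0.116 and 0.0783 CPM, -3.75) and Col9a1 (1.19 and 1.03 against 0.0675, 0 and 0.0448 CPM, -4.80) fell beside Col10a1 (-10.33), at levels low in all libraries. Acan did not pass (128 and 148 against 39.1, 25.6 and 49.0 CPM, adjusted p = 0.0761), nor did Sox9, the master factor of cartilage (-0.24, adjusted p = 0.371), and Sox6 rose (1.15). Of 23 osteoblast genes 7 fell (30.4%) and none rose. Runx2, the osteoblast master factor, fell from 49.9 and 49.4 to 17.8, 16.7 and 23.1 CPM (-1.37, adjusted p = 0.0429), and Bmp3 fell by 2.16 on the log2 scale. Sp7 (-2.30, adjusted p = 0.112), Ibsp (-2.59, adjusted p = 0.16) and Bglap (-3.53, adjusted p = 0.206) did not pass, although Ibsp measured 178 and 181 CPM in wild type and 22.9, 15.3 and 51.6 CPM in the mutant. No osteoclast gene of 14 passed: Ctsk, the osteoclast protease, measured 157 and 155 against 91.0, 63.0 and 486 CPM, and Acp5 85.1 and 107 against 76.5, 65.2 and 194 CPM. The summed osteoclast list was 494 and 551 CPM in wild type and 364, 343 and 1010 CPM in the mutant, so that mutant replicate 3 alone lay above wild type. Tnfsf11, the osteoclast-inducing ligand, was also highest in mutant replicate 3, at 2.11 and 1.46 against 2.06, 1.10 and 8.38 CPM (adjusted p = 0.408). In the fit over all 10 libraries no tendon gene of 11 passed, Scx (-1.27, adjusted p = 0.0814), Tnmd (-1.36, adjusted p = 0.138) and Mkx (-0.84, adjusted p = 0.164) among them. With the 12 dpa libraries fitted alone, however, Acan, Sp7, Ibsp, Scx, Tnmd and Mkx passed. Acan, Sp7, Scx and Tnmd also passed without 14 dpa mutant replicate 1, and none of these genes without 14 dpa mutant replicate 3. Runx2 lost the call in each fit that left out a library of this day, Col9a1 without either wild type library and Sox6 without wild type replicate 1. The log2 fold change of Col9a1 was -5.46 without mutant replicate 1. Col10a1 rested on 5 counts in the mutant group and was called in each of those fits.

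Wnt signalling is the pathway through which the nail epithelium is known to act on the digit tip. Of 60 tested Wnt pathway genes 12 fell and 2 rose, a median of -0.35. Lef1, the transcription factor that Wnt signals act through, measured 8.81 and 24.4 against 1.08, 0.879 and 0.694 CPM (-4.23, SE 0.62, adjusted p = 0.00446). The secreted antagonist Frzb fell from 2.62 and 3.12 to 0.248, 0.116 and 0.101 CPM (-4.19), and the feedback target Axin2 from 17.3 and 21.5 to 10.9, 12.8 and 14.2 CPM (-0.62, adjusted p = 0.0419). Wnt7b, an epidermal ligand, rose from 22.7 and 22.5 to 39.0, 81.2 and 54.4 CPM (1.36) and Lgr6, a receptor of epithelial stem cells, rose (1.23), while Wnt5a did not pass (-0.33, adjusted p = 0.299). In the BMP and TGF-beta pathway 12 of 44 fell (27.3%, against 9.34% of all genes) and 1 rose (2.27%, against 7.18%), a median of -0.63. Bmp4, a growth factor of regenerating digits, fell from 13.01 and 11.7 to 3.52, 4.17 and 2.52 CPM (-1.86, SE 0.31), and Bmp8a from 9.15 and 22.5 to 1.09, 1.36 and 1.49 CPM (-3.59, SE 0.40). Tgfb1 (-0.67) and Bmp3 (-2.16) fell and the co-receptor Tgfbr3 rose (1.29), whereas Bmp2 (-0.69, adjusted p = 0.136) and the BMP target Id1 (0.05, adjusted p = 0.895) did not pass.

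In the FGF pathway 8 of 27 tested members fell (29.6%, against 9.34% of all genes) and 2 rose (7.41%, near the 7.18% of all genes). The ligands Fgf18 (2.29 and 4.65 against 0.248, 0.129 and 0.414 CPM, -3.70) and Fgf10 (5.07 and 5.39 against 1.74, 1.12 and 1.57 CPM, -1.82) fell, as did the mesenchymal receptor Fgfr1 (-0.68). The receptor Fgfr3 rose from 64.5 and 64.6 to 161, 149 and 137 CPM (1.21, SE 0.15, adjusted p = 0.00186), and the epithelial carrier Fgfbp1 from 33.3 and 31.6 to 63.3, 67.6 and 75.8 CPM (1.08). Fgf2 (-0.98, adjusted p = 0.202) and Fgf7 (0.41, adjusted p = 0.777) did not pass. Medians of the Wnt, BMP and FGF lists were -0.25, -0.31 and -0.35 with equal TPM medians. Of the 15 changed Wnt, BMP and FGF genes named, 5 and 6 lost the call without wild type replicates 1 and 2, and Fgfr1 lost it in each of the 5 fits that left out a library. Without wild type replicate 2, Lef1 stood at -3.31, Bmp8a at -2.80 and Fgf18 at -3.10, and the falls in the Wnt and FGF lists numbered 4 and 2.

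Of 17 Hedgehog genes 4 fell (23.5%, against 9.34% of all genes) and 2 rose. The ligand Ihh, made by cartilage, was below 1 CPM throughout and fell (-2.35), with Scube3 (-1.96), the pathway target Hhip (-1.14) and Gli3 (-0.53), while Gli2 (0.78) and the co-receptor Boc (0.44) rose. The target genes Ptch1 (-0.46, adjusted p = 0.103) and Gli1 (-0.61, adjusted p = 0.218) did not pass. Of 20 Notch genes 6 fell (30.0%) and none rose. Hey2 (-2.12) and Heyl (-2.04), Notch targets of vessel walls, fell, whereas Notch1 (-0.02, adjusted p = 0.953), the ligand Jag1 (0.71, adjusted p = 0.051) and Hes1 (0.13, adjusted p = 0.462) did not pass. Of 21 insulin-like growth factor genes 4 fell (19.05%) and 1 rose. Igfbp5, a binding protein of bone and mesenchyme, fell from 1019 and 1220 to 375, 269 and 275 CPM (-1.87, SE 0.38, adjusted p = 0.0145). Pappa2, a protease that releases insulin-like growth factors, fell as well (-2.16), with Igfbp7 (-1.03) and Irs1 (-0.98). Igf2bp2, an RNA-binding protein, rose from 2.21 and 1.32 to 10.7, 12.6 and 14.5 CPM (2.83, SE 0.28, adjusted p = 0.000658). The growth factors Igf1 (-0.61, adjusted p = 0.195) and Igf2 (0.35, adjusted p = 0.515) did not pass. Of the 13 changed Hedgehog, Notch and insulin-like growth factor genes named, 5 and 11 lost the call without wild type replicates 1 and 2, and 6 without each of the mutant libraries in turn. Igf2bp2 and Ihh were called in all 5 of those fits.

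Retinoid, guidance, EGF and junction genes moved in both directions. Of 16 YAP targets 3 fell (18.75%, against 9.34% of all genes) and none rose. Cyp26a1, an enzyme that degrades retinoic acid, fell from 2.33 and 3.37 to 0.36, 0.258 and 0.638 CPM (-2.76), with Rbp4 (-1.64), Rdh10 (-0.50) and Aldh1a1. Aldh1a1 is given as a ratio, since 1 mutant count stood against 32 in wild type: it was 55.7-fold higher in wild type, with a counting interval of 9.30 to 2267. Rxra rose from 166 and 193 to 308, 366 and 339 CPM (0.91) and Crabp2 rose (0.91), while Rara (0.21, adjusted p = 0.314), Cyp26b1 (-0.63, adjusted p = 0.154) and Crabp1 (-1.60, adjusted p = 0.111) did not pass. Among 16 YAP targets Cyr61, a matricellular protein now named Ccn1, fell from 46.6 and 85.7 to 8.86, 5.94 and 11.9 CPM (-2.89, SE 0.36, adjusted p = 0.0023), with Foxf2 (-1.95) and Lats2 (-0.59). Ctgf, its relative now named Ccn2, missed the threshold (-1.001, adjusted p = 0.0594). Of 54 guidance genes 11 fell (20.4%, against 9.34% of all genes) and 5 rose (9.26%, against 7.18%). The axon repellents Sema3a (-1.95) and Slit2 (-1.21), the receptors Epha3 (-2.59) and Unc5b (-1.99) and the ligand Efnb2 (-0.94) fell, Slit1 (1.35), Epha1 (0.93), Ephb6 (0.85), Plxna2 (0.55) and Epha4 (0.49) rose, and Ntn1 did not pass (-0.32, adjusted p = 0.598).

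In the EGF family the epithelial ligand Epgn fell from 49.1 and 95.9 to 15.7, 13.5 and 9.90 CPM (-2.48, SE 0.27, adjusted p = 0.00112). Its receptor family members Erbb3 (0.70) and Erbb4 (2.698) rose, Erbb4 at levels of 1.15 CPM or less and at -0.12 on log2(TPM + 1) with equal medians, and Egfr (0.13, adjusted p = 0.576), Areg (0.45, adjusted p = 0.458) and Hbegf (0.57, adjusted p = 0.129) did not pass. Of 28 junction and adhesion genes outside desmosomes 8 fell (28.6%, against 9.34% of all genes) and 1 rose (3.57%, against 7.18%). Gja1, the main gap junction protein of skin and bone, fell from 2310 and 2819 to 1838, 1611 and 1410 CPM (-0.66, adjusted p = 0.0389), and the cadherins Cdh4 (-2.37) and Cdh2 (-1.52) and the claudin Cldn3 (-1.94) fell. Itgb6, an epithelial integrin, rose (0.65), and Cldn1 did not pass (-0.13, adjusted p = 0.533). Of the 27 changed genes named for retinoid, YAP, guidance, EGF and junction lists, 16 and 17 lost the call without wild type replicates 1 and 2, and 7, 11 and 5 without mutant replicates 1, 2 and 3. Cdh4 stood at -1.61 without wild type replicate 2 and Erbb4 at 1.77 without mutant replicate 2. The medians of the guidance and junction lists were below 0 here (-0.21 and -0.19) and above it on log2(TPM + 1) (0.06 and 0.10), and that of the retinoid list was 0.01 here and -0.01 with upper quartile scaling.

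Imprinted genes are expressed from a single parental allele and often linked to fetal growth. They gave 9 falls and 3 rises among 26 tested, a median of -0.67. Those shares were 34.6% and 11.5%, against 9.34% and 7.18% of all genes. Besides Mest, Grb10, a brake on growth signalling, fell from 93.2 and 104 to 24.2, 20.96 and 26.7 CPM (-2.04, SE 0.36, adjusted p = 0.0083), and Peg10 from 13.04 and 10.9 to 2.60, 3.76 and 4.67 CPM (-1.70). Ascl2 (1.38), Snrpn (1.27) and Mkrn3 (1.20) rose, each at a few CPM or less. Igf2 (adjusted p = 0.515), H19 (0.73, adjusted p = 0.465) and Dlk1 (-2.32, adjusted p = 0.172) did not pass, and H19 was high in mutant replicate 1 only, at 116 CPM against 25.2 to 43.4 CPM in the other 4 libraries. The noncoding Mirg was below 1 CPM and fell (-2.98, and -3.61 without mutant replicate 2). Fewer members were called as falls when each library of this day was left out, fewest without wild type replicate 2, and Mest was called in every such fit.

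Markers of other cell types in these mixed tissues moved as well. The nail, vessel and alarmin lists, named here only as context, gave 15 falls of 20, 19 falls of 21 blood endothelial genes, and 8 rises and 1 fall of 17. Over all tested genes 9.34% fell and 7.18% rose. Basal keratins Krt5 (2342 and 2584 against 5304, 6587 and 6867 CPM, 1.34), Krt14 (1.01) and Krt17 (1.12) rose, and Krt10 did not pass (0.86, adjusted p = 0.116). The nail keratins Krt31 (-4.80) and Krt33a (-9.79), the endothelial genes Pecam1 (-1.64), Cdh5 (-2.09) and Kdr (-2.14) and the pericyte gene Rgs5 (-2.22) fell, and S100a8 (4.49) and Lcn2 (6.94) rose. The summed keratinocyte list was 110149 and 81048 CPM in wild type and 123072, 157773 and 107852 CPM in the mutant, so the groups overlapped. The summed nail list was 36874 and 65004 against 6633, 12201 and 8992 CPM, and the summed blood endothelial list 451 and 556 against 120, 144 and 191 CPM. Schwann cell and nerve genes were level, at 155 and 151 against 146, 159 and 158 CPM in sum, and 1 of 19 fell. Of the smaller lists, 5 of 7 lymphatic endothelial and 4 of 13 pericyte genes fell, with Lpl and Fabp4 among 6 fat cell genes and Gap43 among the nerve genes. In the gland list Krt79 and Mgst1 rose among 10, and in skeletal muscle Pax7 rose and Acta1 fell among 8, each below 2 CPM, with Pax7 at -0.069 on log2(TPM + 1) with equal medians. No gene of 6 erythroid and 2 B cell genes passed. Marker genes Ly6g, Mpo and Elane of granulocytes, Adipoq and Plin1 of fat, Ckm and Myh4 of muscle and Ms4a1 of B cells had too few counts to be tested. The part of these shifts in tissue makeup in any other result was not tested. Lcn2 stood at 6.19 and 8.61 without wild type replicates 1 and 2, and Krt31 at -4.15 and Krt33a at -9.13 without replicate 2. Krt14 and Krt17 lost the call without either wild type library, and of the 6 fat, nerve, gland and muscle genes named beside Fabp4, only Mgst1 kept it in each fit that left out a library. Krt79 ran from 2.33 without wild type replicate 1 to 4.12 without replicate 2.

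**Figure D4:**
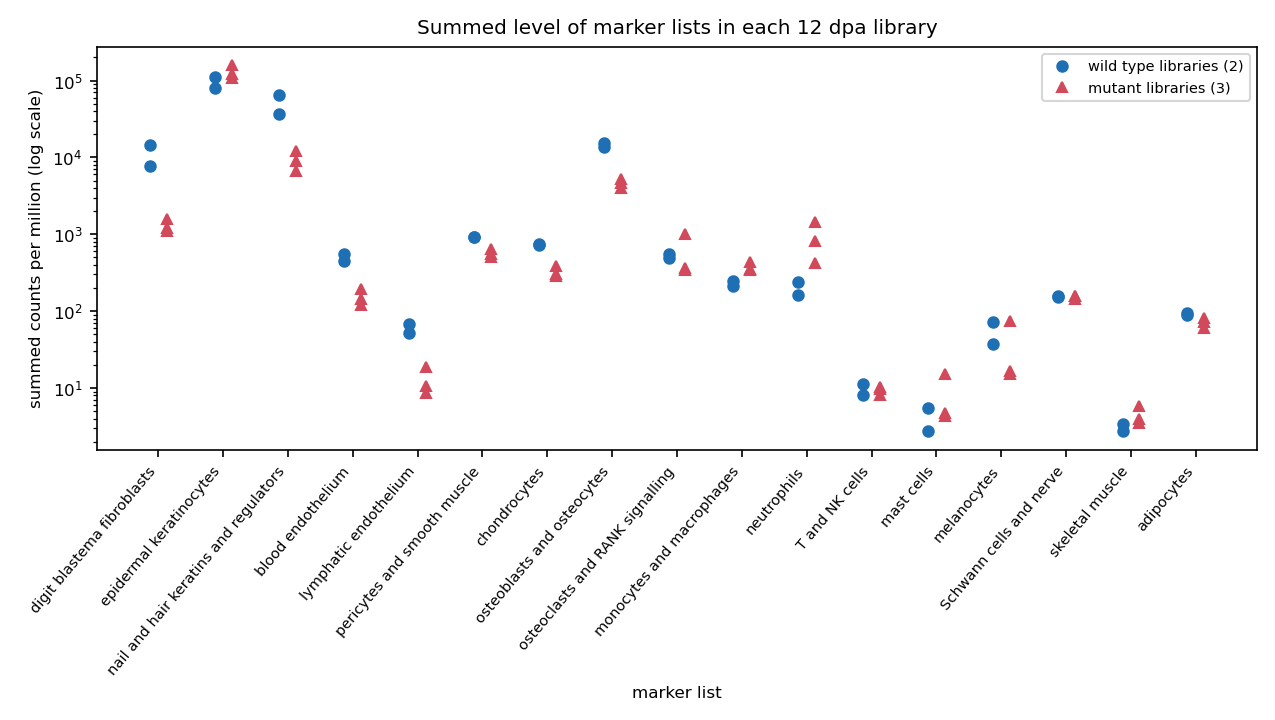
Summed CPM of 17 marker lists in each 12 dpa library on a log axis, circles for the 2 wild type and triangles for the 3 mutant libraries. Fibroblast, nail, endothelial, pericyte, chondrocyte and osteoblast sums lie lower in all 3 mutant libraries. Neutrophil sums lie higher, and their list includes S100a8 and S100a9, of which S100a9 is also on the alarmin list. Macrophage sums lie higher too, and of these Apoe holds 232 to 272 CPM in the mutant. In osteoclast, mast cell and melanocyte sums 1 mutant library stands above the others.

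The pigment genes Tyr, Tyrp1, Pmel, Dct and Trpm1 were below 1 CPM in both wild type libraries. Tyr, the rate-limiting enzyme of melanin synthesis, had 0 counts in both wild type libraries and 0.507, 0.568 and 5.09 CPM in the mutant, so that it was at least 104-fold higher against a floor of 3 counts over the wild type group. Tyrp1 had 1 count in wild type and 1.62, 1.499 and 14.8 CPM in the mutant, a ratio of 907 with a counting interval of 163 to 35860. Pmel, which forms the fibrils of the pigment granule, rose from 0.218 and 0.259 to 2.32, 1.56 and 16.3 CPM (4.81, adjusted p = 0.0266), Dct from 0.749 and 0.762 to 2.96, 2.65 and 15.8 CPM (3.23, adjusted p = 0.0354), and Trpm1 rose too (4.47). In all of them mutant replicate 3 lay far above the other mutant libraries, and those lay above wild type. Mitf, the transcription factor of pigment cells, which is also made elsewhere, fell from 27.9 and 58.6 to 3.25, 4.41 and 7.26 CPM (-3.12, SE 0.37, adjusted p = 0.00192), and the endothelin receptor Ednrb fell (-1.69). In all, 5 of 14 tested melanocyte genes rose and 2 fell (35.7% and 14.3%, against 7.18% and 9.34% of all genes). The 5 rises were lost without either wild type library, with the 12 dpa libraries fitted alone and on both log2(TPM + 1) scales, and 3 melanocyte genes rose on log2(TPM + 0.1). All 5 calls remained without mutant replicate 3, with log2 fold changes of 3.04 for Pmel, 1.91 for Dct and 3.15 for Trpm1. In that case Tyr was at least 26.2-fold higher and Tyrp1 gave a ratio of 229.8, with a counting interval of 40.9 to 9109. Mitf stood at -2.49 without wild type replicate 2. The summed melanocyte list, which holds Mitf, was 38.0 and 71.4 CPM in wild type and 15.4, 16.4 and 73.5 CPM in the mutant.

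Inflammatory mediators rose from very low levels. Tnf, a cytokine of activated myeloid cells, measured 0.368 and 0.272 CPM in wild type and 2.19, 1.32 and 3.62 CPM in the mutant (2.89, SE 0.47, adjusted p = 0.00518). Il1b measured 0.313 and 0.231 against 2.09, 3.66 and 17.8 CPM (4.84, adjusted p = 0.0323) and the neutrophil chemoattractant Cxcl2 0.232 and 0.068 against 2.60, 4.30 and 23.1 CPM (6.05, adjusted p = 0.0148). Csf3, the granulocyte growth factor, had no count in wild type and was at least 24.1-fold higher in the mutant, and Ccl4 gave a ratio of 70.5, with a counting interval of 23.9 to 343. Il6 (adjusted p = 0.567) and Cxcl1 (adjusted p = 0.0966) did not pass. Of 31 tested mediators 9 rose (29.0%, against 7.18% of all genes) and Cxcl14 alone fell (3.23%, against 9.34%). Mutant replicate 3 was the highest library for each of the risers named. The summed neutrophil list measured 164 and 236 CPM in wild type and 810, 429 and 1452 CPM in the mutant. It includes S100a8 and S100a9, with means of 8.96 and 3.66 CPM in wild type and 201 and 285 CPM in the mutant. S100a9 is also on the alarmin list, and the granulocyte markers Ly6g, Mpo and Elane had too few counts to be tested. The sum is therefore no measure of neutrophil number. Without mutant replicate 3 the log2 fold changes were 3.41 for Il1b and 4.52 for Cxcl2. Csf3 was then at least 6.78-fold higher and Ccl4 gave a ratio of 16.2, with a counting interval of 5.26 to 81.0. Without wild type replicate 2 only 1 mediator was called as a rise. Cxcl2 stood at 7.17 and 5.42 without wild type replicates 1 and 2.

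Among 26 tested interferon-stimulated genes 7 fell (26.9%, against 9.34% of all genes) and none rose, with a median of -0.96. Ifit1, an antiviral effector, measured 1.88 and 0.395 CPM in wild type and 0.101, 0.0904 and 0.157 CPM in the mutant (-3.27, adjusted p = 0.0252), Ifit3 1.73 and 0.327 against 0.169, 0.142 and 0.101 CPM (-2.89), Gbp3 2.92 and 0.912 against 0.338, 0.284 and 0.392 CPM (-2.49), and Isg15 1.83 and 0.558 against 0.27, 0.271 and 0.425 CPM (-1.88). Wild type replicate 1 held the highest level of each of these genes, and replicate 2 lay between it and the mutant libraries. Without it the log2 fold changes were -1.74 for Ifit1, -1.24 for Ifit3, -1.42 for Gbp3 and -0.78 for Isg15 and no interferon gene was called, and without wild type replicate 2 they were -3.99, -3.64, -3.10 and -2.49. The 4 genes also lost the call in each of the 3 fits that left out a mutant library. The transcription factor Irf7 did not pass (-0.59, adjusted p = 0.384). Oas1f, an Oas1 family gene given above among the largest rises, is not on this list. It measured 0.654 and 2.00 CPM in wild type and 9.44, 7.71 and 16.6 CPM in the mutant (3.08).

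Of 22 tested macrophage genes 1 rose and 2 fell, with a median of -0.61. Those shares were 4.55% and 9.09%, against 7.18% and 9.34% of all genes. Among the 22 genes, 10 lay wholly below wild type (45.45%, against 26.0% of all genes) and 1 wholly above (4.55%, against 25.7%). Emr1, the F4/80 antigen now named Adgre1, fell from 2.53 and 2.76 to 0.788, 0.995 and 1.33 CPM (-1.35, adjusted p = 0.0458), and Cx3cr1, a receptor of resident macrophages, from 3.39 and 3.33 to 0.54, 0.284 and 0.582 CPM (-2.83, adjusted p = 0.0457). Apoe, a lipid carrier, rose from 77.5 and 93.6 to 247, 272 and 232 CPM (1.55, SE 0.19, adjusted p = 0.00142), and Csf1r (0.35, adjusted p = 0.648) and Cd68 (-0.57, adjusted p = 0.343) did not pass. Apoe is also made by keratinocytes and other cells, and in the mutant it held most of the list's summed level, which was 215 and 244 CPM in wild type and 343, 349 and 440 CPM in mutant libraries. Cd74, the invariant chain of MHC class II, rose (1.46, adjusted p = 0.0474), most in mutant replicate 1, at 145 CPM against 50.6 and 58.4, and stood at 0.83 without that library. H2-Aa (1.20, adjusted p = 0.0843), the Langerhans cell lectin Cd207 (2.56, adjusted p = 0.082) and Itgax (0.94, adjusted p = 0.0782) did not pass. No T and NK cell gene of 13 and no mast cell gene of 7 passed, Cd3e (adjusted p = 0.182), Cpa3 (adjusted p = 0.801) and Kit (adjusted p = 0.998) among them. Of complement and coagulation genes 2 of 23 rose and 3 fell (8.70% and 13.04%, against 7.18% and 9.34% of all genes). Thbd (0.56) and Serpina3n (2.42, and 1.57 without mutant replicate 3) rose, and Tfpi2 (-2.35), Tfpi (-1.66) and Plat (-1.34) fell. C3 (2.696, adjusted p = 0.0996) and F3 (0.94, adjusted p = 0.0602) did not pass. Of the 19 changed immune and coagulation genes named, 16 and 13 lost the call without wild type replicates 1 and 2, and 8, 9 and 8 without mutant replicates 1, 2 and 3.

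The same contrast at 14 dpa passed for 6728 of 20216 genes. It used other libraries but the same fit and its shared estimate of spread, so calls on both days are not fully independent. Of the 3339 genes called at 12 dpa, 2645 were also called in the same direction at 14 dpa, 74 had the opposite sign and 2, Cxcl14 and the predicted gene Gm45062, were called the opposite way. The edgeR test of the difference between the days passed for no gene (0 of 20216, 0.0%), with a lowest adjusted p of 0.208, 1763 genes at an unadjusted p under 0.05, and 48 genes by DESeq2. Cxcl14, a chemokine of skin, was called in opposite directions. It measured 330 and 312 CPM in wild type and 182, 204 and 189 CPM in the mutant at 12 dpa (-0.74, adjusted p = 0.00966), and its log2 fold change was 0.62 at 14 dpa (adjusted p = 0.012), with an adjusted p of 0.544 for the difference. Hspa5 showed the fall of -1.25 at 12 dpa and -0.29 at 14 dpa (adjusted p = 0.10), again with 0.544 for the difference. Epcam, an epithelial adhesion molecule, rose by 0.54 at 12 dpa (adjusted p = 0.0491) and 1.92 at 14 dpa. Bhlhe40 and Serpina9 did not pass at 12 dpa (adjusted p = 0.539 and 0.40) and stood at 0.96 and 1.84 at 14 dpa. Gm45062 rose at 12 dpa (1.96, adjusted p = 0.0107) and stood at -2.42 at 14 dpa (adjusted p = 0.0024), with the lowest adjusted p for the difference. It lost the 12 dpa call without wild type replicate 1. Cxcl14 lost the 12 dpa call without either wild type library, and of the 5 fits that left out a 12 dpa library Epcam kept the call only without wild type replicate 1.

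**Figure D5:**
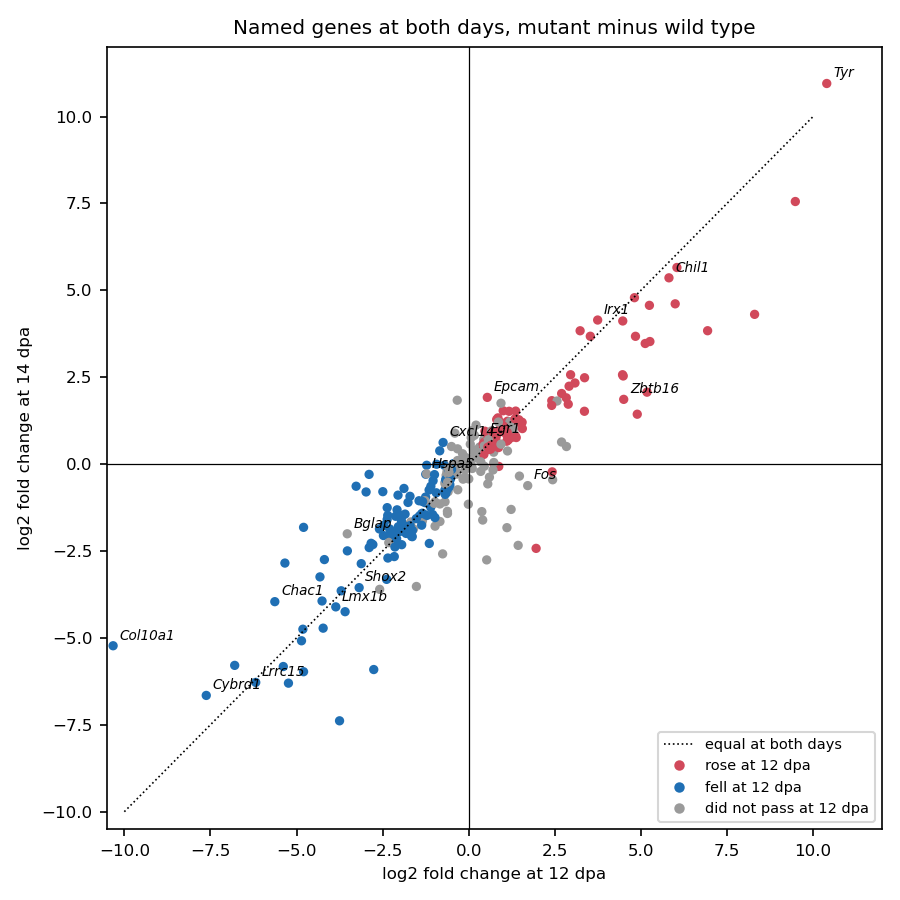
Log2 fold change of most of the genes named in the text, mutant minus wild type, at 12 dpa on the horizontal and 14 dpa on the vertical axis, coloured by the call at 12 dpa. Most called genes lie near the line of equal values, and Cxcl14 lies on opposite sides of 0.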

How the data were processed

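The data are bulk RNA-seq libraries of digit tip blastema, 2 wild type and 3 mutant at each of 12 and 14 dpa. Reads were processed with STAR 2.7.8a and RSEM 1.3.0 on GRCm39, with FastQC listed beside them, per the submitters' processing notes, and the strand setting was not given in the sources used here. Deposited by the authors were RSEM expected counts per gene and library, 55416 genes each, and a TPM table of 21729 protein-coding genes whose TPM values equalled those of the deposited per-library files. RSEM divides reads among near-identical genes, so values of ribosomal protein, Sprr2, Oas1 and keratin genes are uncertain. In the 12 dpa libraries 14.0% of expected counts were not whole, and all were rounded. Symbols came from the deposited table for 21727 genes and from GENCODE M21 for 30406, and 3283 unnamed genes held 4.27% of the 12 dpa counts. Ccn1, Ccn2 and Adgre1 are listed under the older symbols Cyr61, Ctgf and Emr1.

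Counts were fitted with edgeR 4.0.16 in R 4.3.3 (quasi-likelihood, robust, TMM factors, genes filtered at a minimum count of 10 and a minimum total of 15, 4 groups, all 10 libraries). The 14 dpa libraries share the estimate of spread, which had a biological coefficient of variation of 0.277. Alternatives used limma 3.58.1 and DESeq2 1.42.0, and the fit was tested on simulated data. Floors are 3 counts over a group and intervals are exact at 95%, covering counting error only. The series calls its libraries biological replicates, and the labels do not say whether they came from separate animals, so p-values measure the spread between these libraries. No batch or date is given. Replicate numbers did not pair the libraries, with correlations of 0.019 and 0.008 between the deviations of same-numbered libraries. Replicates differed by far more than counting noise, with a chi-square per degree of freedom of at least 125.

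Genes and gene lists were chosen with earlier results of these data known. The genes named were Lmx1b, fixed markers of each list, up to 2 members of a list with the largest change in each direction among those that passed with a mean of at least 1 CPM in either genotype, the 12 largest rises and falls among protein-coding-table genes with a mean of at least 10 CPM in either genotype outside keratins, predicted genes and the nail, vessel, pericyte, neutrophil and alarmin lists, and the 5 genes of that table with a mean of at least 10 CPM in any of the 4 groups that had the smallest p for the difference between days. The 12 largest rises and falls were taken only from genes that passed and whose libraries did not overlap between genotypes. Members of lists with 5 or fewer calls in a direction, the genes beside Lmx1b and Gm45062 were also named, chosen after their values were seen. Some genes that this choice names are not reported here.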

Additional observations from a re-analysis of the deposited data

How the results depend on the processing

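Counts of genes called at 12 dpa depended on the processing more than their direction did. With a replicate block, which the libraries' deviations do not call for, 1927 genes passed, 817 higher and 1110 lower. On log2(TPM + 1) 3134 rose and 1228 fell, on log2(TPM + 0.1) 3062 rose and 1049 fell, and with equal library medians, an alternative chosen after seeing the data, 1735 rose and 1916 fell. DESeq2's Wald test gave 2340 rises and 2535 falls. With sex as a covariate 2635 genes passed, and with the 12 dpa libraries fitted alone 2701 passed. In that last fit 940 of the 3339 genes were no longer called. Hoxa11, Mt2, Crabp1 and Ctgf gained a call there, as did the bone, tendon and collagen genes given above. Leaving out each library of either day in turn gave 769 to 3948 genes in all, 269 to 1680 rises and 500 to 2268 falls, the fewest without 12 dpa wild type replicate 2. Of the 3339 genes, 732 kept their call in that fit and 1373 without wild type replicate 1. The cause of these differences was not tested, although the leave-out fits also rest on fewer samples. The difference between days passed for 1 gene with no filter on low counts, 1 on log2(TPM + 1), 48 by DESeq2 and 0 to 3 with a library left out. Lmx1b passed in every fit run. Among the named genes Erbb4 and Pax7 turned, to -0.12 (adjusted p = 0.424) and -0.069 (adjusted p = 0.636) with equal TPM medians. With 2 wild type libraries, a gene that missed the threshold is not shown to be equal between genotypes.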
